A study of Mus musculus with 26 samples.

Results

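Histone variants are histones that are made outside the burst of histone synthesis that accompanies DNA replication, and they replace or supplement the canonical histones in chromatin. The 8 genes described here encode such variants: H2afz and H2afv (the H2A.Z proteins), H2afx (H2A.X), H2afy and H2afy2 (the macroH2A proteins), H3f3a and H3f3b (both H3.3) and H1f0 (the linker histone H1.0). They were picked by gene symbol. All 8 were listed in oligodendrocyte progenitor cells (OPCs) and in oligodendrocytes (OLs), with 1 transcript each, among 8177 transcripts listed for both cell types (8530 in OPCs and 9751 in OLs).

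Canonical histone mRNAs, which come mainly from the Hist gene clusters, end in a stem-loop in place of a poly(A) tail, are made in S phase and are removed when replication stops. Variant histone genes are usually transcribed through the cell cycle and their mRNAs are spliced and polyadenylated. H2A.X is an exception, since its gene is known to give rise to a short stem-loop mRNA as well as a longer polyadenylated one.

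The mouse OPCs were derived from epiblast stem cells of strain 129S/SvEv and grown with bFGF and PDGFA, and the OLs were differentiated from such OPCs in medium with noggin, IGF-1, cyclic AMP, NT3 and T3, with no genetic change in either. After 40 h in culture, cells were given 5-ethynyluridine (5-EU), a uridine analogue to which biotin can be coupled, for 24 h. The label was then replaced by uridine, and labelled RNA was pulled down and sequenced at 0, 1, 2, 4 and 6 h of this chase in 3 OPC replicates and 2 OL replicates (25 libraries). Ribosomal RNA was depleted and poly(A) tails were not selected, so mRNAs with and without a tail could be read and the presence of a tail was not measured. A control sample of OPC RNA with no biotin was not analysed here. Each OL replicate corresponds to an OPC replicate, per the study's methods, but the sources used here do not say which, so the cell types were compared as unpaired and may share part of their spread. The labels do not say whether replicates of a cell type were separate derivations, so p-values between cell types measure the spread between these cultures only. P-values of slopes within a cell type measure the scatter of single libraries about a slope shared by its replicates. They do not measure how slopes spread between cultures.

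Values are FPKM, in which reads are divided by transcript length and by the size of the library, so that levels of different genes can be set side by side. The values were scaled by the authors with a labelled spike-in RNA at each time point. The 0 h columns are written with up to 10 significant digits and the later columns with up to 6, so the 0 h values may be FPKM as quantified, and whether the spike-in entered them is not settled. With each library set to the same median, the same genes of the 8 were called at 0 h. Read counts are unknown, so no counting error is given. Oligodendrocyte markers went with the labels: 2 of 6 (Mbp and Cnp) were listed in OPCs and 6 of 6 in OLs, and their summed 0 h level was 37.6 to 55.1 FPKM in OPCs against 5997 and 2744 FPKM in OLs. Progenitor markers were mixed. At an adjusted p under 0.05 in limma, 2 of 4 were higher in OLs (Gpr17 and Pdgfra, log2 differences of 5.51 and 1.70) and none lower. Of 8177 transcripts, 14.1% were higher and 17.5% lower. By contrast, Cspg4 had 55.7, 35.7 and 43.9 FPKM in OPCs and 30.7 and 29.9 FPKM in OLs (-0.53, limma adjusted p = 0.0961), and Ptprz1 had a difference of -0.46 (adjusted p = 0.323). The summed level of the 4 progenitor markers was 186 to 307 FPKM in OPCs and 530 and 501 FPKM in OLs, of which Gpr17 made up 323 and 299 FPKM. Markers of dividing cells summed to 430 to 557 FPKM in OPCs and to 152 and 68.7 FPKM in OLs. Astrocyte markers (1 of 4 listed in OPCs, 3 of 4 in OLs) summed to 179 to 224 FPKM and to 104 and 165 FPKM, neuron markers (1 of 3 in each) summed to 13.2 to 17.4 FPKM and to 24.6 and 24.5 FPKM, and none of 3 microglia and 2 pluripotency markers was listed.

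The 3′ ends annotated for the 8 genes set H2afx apart. The transcripts were read from GENCODE M21 on GRCm38, and a stem-loop was searched for after the stop codon on the transcript strand only, as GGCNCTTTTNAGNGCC, which overlaps no other motif searched. H2afx was the only one of the 8 that held it, at chr9:44335240-44335255 on the plus strand, 46 bases after the stop codon and 822 bases before the annotated end of the transcript. Of the 65 Hist-cluster genes that were listed for both cell types, 15 have no annotated sequence after the stop codon and could not be searched, and the same letters were found in 40 of the other 50 (80%). They were found in 42 of 9968 listed transcripts with such sequence (0.421%), the other gene outside the clusters being H2bfm. The stem-loop of H2afx is shown beside those of Hist1h2ab and Hist2h2aa1, which encode canonical H2A, with the searched letters in capitals.
H2afx: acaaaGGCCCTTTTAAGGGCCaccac
Hist1h2ab: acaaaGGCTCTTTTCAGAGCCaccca
Hist2h2aa1: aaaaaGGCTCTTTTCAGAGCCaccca
The 16 capital letters of H2afx were found in none of the 40 Hist-cluster genes, whereas those of Hist1h2ab and Hist2h2aa1 were the same and occurred in 24 of the 40.

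A poly(A) signal, AATAAA or ATTAAA, stood in the last 50 bases of the annotated transcript in 7 of the 8 genes (87.5%), against 77.8% of all listed transcripts and 14 of the 50 Hist-cluster genes with annotated sequence after the stop codon. H2afy had neither in that window. In H2afx the signal lay 35 bases from the end, so its annotated transcript holds both kinds of 3′ end. The sites of H2afx, H2afz and the H3.3 genes are shown with the signal in capitals.
H2afx: ggctaattttATTAAAggatcgtttg
H2afz: ctgcttactaATTAAAcagtgcatct
H3f3a: tttgaaaaatAATAAAagtaccaata
H3f3b: aggccttacaAATAAActagtaagtt

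The genes lie on 7 chromosomes of GRCm38: H2afz at chr3:137864487-137866922 on the plus strand, H2afv at chr11:6427229-6444443 on the minus strand, H2afx at chr9:44334694-44336077 on the plus strand, H2afy at chr13:56073619-56135631 on the minus strand, H2afy2 at chr10:61738665-61784147 on the minus strand, H3f3a at chr1:180800832-180813632 on the minus strand, H3f3b at chr11:116021961-116024504 on the minus strand and H1f0 at chr15:79028450-79030504 on the plus strand. H2afx and H1f0 have 1 exon, as canonical histone genes do, and the others have 4 to 9.

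Both H3.3 genes encode the same protein with different codons, and this lets their mRNAs be told apart. Their coding sequences differed at 95 of 411 bases and in 83 of 136 codons, all 83 between synonymous codons. The 60 coding bases with the most differences, positions 196 to 255 from the A of the start codon, are shown with the 18 differing bases in capitals.
H3f3a: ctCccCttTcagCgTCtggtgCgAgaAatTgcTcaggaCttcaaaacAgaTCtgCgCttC
H3f3b: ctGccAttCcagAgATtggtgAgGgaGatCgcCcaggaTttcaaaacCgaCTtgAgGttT
Of the 13 lysine codons in each, AAA made up 61.5% in H3f3a and 46.2% in H3f3b, where the median of listed transcripts was 37.5%. G or C stood at the third position of 44.9% of codons in H3f3a and 70.6% in H3f3b. Both coding sequences read phenylalanine with UUU at 50.0% of 4 codons.

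H2afz and H2afv differed at 81 of 387 coding bases and in 74 of 128 codons, 71 of them synonymous, and had the same AAA share of 35.7% over 14 lysine codons. The window with the most differences, positions 67 to 126, holds 16 of them.
H2afz: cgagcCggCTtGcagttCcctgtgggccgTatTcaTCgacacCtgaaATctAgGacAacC
H2afv: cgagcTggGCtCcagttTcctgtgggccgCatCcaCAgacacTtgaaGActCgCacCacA
Histones are rich in lysine, and lysine made up 9.09% to 12.6% of the codons in 7 of the genes and 28.4% in H1f0, against a median of 5.74%. AAA was rarest among these in H2afx, at 7.69% of 13 lysine codons, which equals the median of the Hist-cluster genes (7.69%).

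Reads from gene copies could be shared for some members. Of the 30-base stretches of the H2afz transcript, 34.5% also occurred in transcripts of another gene, nearly all of them in Gm8203. The share was 20.5% for H3f3a, 17.6% for H3f3b, 16.5% for H2afy2, 9.0% for H2afx, 1.12% for H2afv, and 0% for H2afy and H1f0. Levels of H2afz, H3f3a, H3f3b, H2afy2 and H2afx are uncertain for this reason, since how such reads were assigned is not given in the sources used here. The share is not a bound on the error, which also depends on the level of the other genes. The shared stretches of H2afx occurred in 25 other genes, all of them in the canonical H2A gene Hist1h2ab. Reads of such genes could be counted in H2afx wherever it is set beside them below, and this was not tested.

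Labelled mRNA of H2afz, H2afv and H2afx was lower in OLs than in OPCs at 0 h, and labelled mRNA of H1f0 was higher. At an adjusted p under 0.05 (limma on log2(FPKM + 1), Benjamini-Hochberg over 8177 transcripts), 3 of the 8 genes were lower and 1 was higher, a total of 4, where 31.6% of all transcripts were called, 17.5% lower and 14.1% higher. The 2586 transcripts called became 1446 without OPC replicate 3 and 2912 without OPC replicate 2. For each of the 8 genes the 3 OPC and 2 OL values did not overlap, which was also true of 59.3% of all transcripts. The median log2 difference of the 8 genes was -0.49, beside -0.01 over all transcripts. In such bulk samples, fewer cells of a type and less RNA per cell cannot be told apart.

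H2A.Z sits at promoters and enhancers and is exchanged into nucleosomes by remodelling complexes. H2afz had 588, 569 and 562 FPKM in OPC replicates 1, 2 and 3 and 152 and 92.4 FPKM in OL replicates 1 and 2. It was the most abundant of the 8 in OPCs, and even the higher OL value was far below every OPC value. The OL mean was 21.4% of the OPC mean (122 ± 42.4 against 573 ± 13.6 FPKM, mean ± SD, n = 2 and 3), a log2 difference of -2.26 ± 0.23 (SE, limma adjusted p = 0.000131). H2afv, which encodes the second H2A.Z protein, had 113, 84.9 and 94.4 FPKM in OPCs and 54.6 and 44.8 FPKM in OLs. The OL mean was 50.9% of the OPC mean (log2 difference -0.96 ± 0.20, limma adjusted p = 0.00590). Without OL replicate 2 the value for H2afv was -0.82 and the adjusted p 0.0589. Within each library, H2afz stood at 5.18, 6.70 and 5.95 times H2afv in OPCs and at 2.79 and 2.06 times in OLs. By FPKM, the labelled H2A.Z mRNA was thus less weighted to H2afz in both OL replicates.

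H2A.X is phosphorylated around DNA breaks and recruits repair factors. H2afx had 470, 426 and 432 FPKM in OPCs and 117 and 70.8 FPKM in OLs. The OL mean was 21.3% of the OPC mean (log2 difference -2.27 ± 0.23, limma adjusted p = 0.000126), nearly the same difference as for H2afz. Of the 65 Hist-cluster genes, a set chosen after values were seen, 63 were lower at an adjusted p under 0.05 in limma, against 17.5% of all transcripts. Their median log2 difference was -2.36. Their summed level was 59814, 64630 and 63561 FPKM in OPCs and 14154 and 11243 FPKM in OLs. Markers of dividing cells fell along with these genes (4 of 5 tested were lower and none higher, against 17.5% and 14.1% of all transcripts). The median log2 difference of these markers was -1.70, led by Ccnb1 (-3.47), Mcm6 (-2.42), Top2a (-1.70) and Pcna (-1.61). Their part in the levels of H2afz and H2afx was not tested.

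The macroH2A proteins carry a large domain beside their histone fold and are enriched on silent chromatin, including the inactive X chromosome. H2afy had 60.6, 51.7 and 60.7 FPKM in OPCs and 44.6 and 43.4 FPKM in OLs (log2 difference -0.38 ± 0.18, limma adjusted p = 0.137). H2afy2 was the least abundant of the 8, with 22.6, 22.4 and 22.1 FPKM in OPCs and 18.1 and 14.7 FPKM in OLs (log2 difference -0.43 ± 0.22, limma adjusted p = 0.166). Each OL value of either gene lay below each OPC value, but neither difference passed the threshold. H2afy stood at 2.31 to 2.74 times H2afy2 in OPCs and at 2.46 and 2.96 times in OLs.

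H3.3 is laid down at active genes and regulatory elements by the HIRA complex and at telomeres and other repeats by DAXX and ATRX. H3f3b had 334, 313 and 337 FPKM in OPCs and 290.4 and 289.7 FPKM in OLs, which made it the most abundant of the 8 in OLs. The OL mean was 88.3% of the OPC mean, and the log2 difference of -0.18 ± 0.18 had a limma adjusted p of 0.469. H3f3a had 86.2, 84.5 and 82.6 FPKM in OPCs and 67.2 and 49.0 FPKM in OLs (log2 difference -0.55 ± 0.19, limma adjusted p = 0.0528). The difference for H3f3a was -0.33 without OL replicate 2 and -0.77 without OL replicate 1. By FPKM, H3f3b made up most of the labelled H3.3 mRNA at 0 h, at 3.88, 3.71 and 4.08 times H3f3a in OPCs and 4.32 and 5.91 times in OLs.

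H1.0 is a linker histone known to accumulate in differentiated, non-dividing cells. H1f0 had 28.4, 26.4 and 28.1 FPKM in OPCs and 48.2 and 43.1 FPKM in OLs. It was the only one of the 8 with every OL value above every OPC value, and its OL mean was 1.65 times its OPC mean (45.7 ± 3.59 against 27.6 ± 1.06 FPKM). The log2 difference was 0.70 ± 0.19 (limma adjusted p = 0.0205). Leaving out OPC replicate 3, OL replicate 1 or OL replicate 2 gave differences of 0.71, 0.62 and 0.78 with adjusted p of 0.0837, 0.142 and 0.0703, and leaving out OPC replicate 1 or 2 gave 0.72 and 0.67 with adjusted p of 0.0179 and 0.0294. With the replicate number as a block, which is one way the cultures could be paired, the difference was 0.71 and the call was lost (adjusted p = 0.0770).

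**Figure D1:**
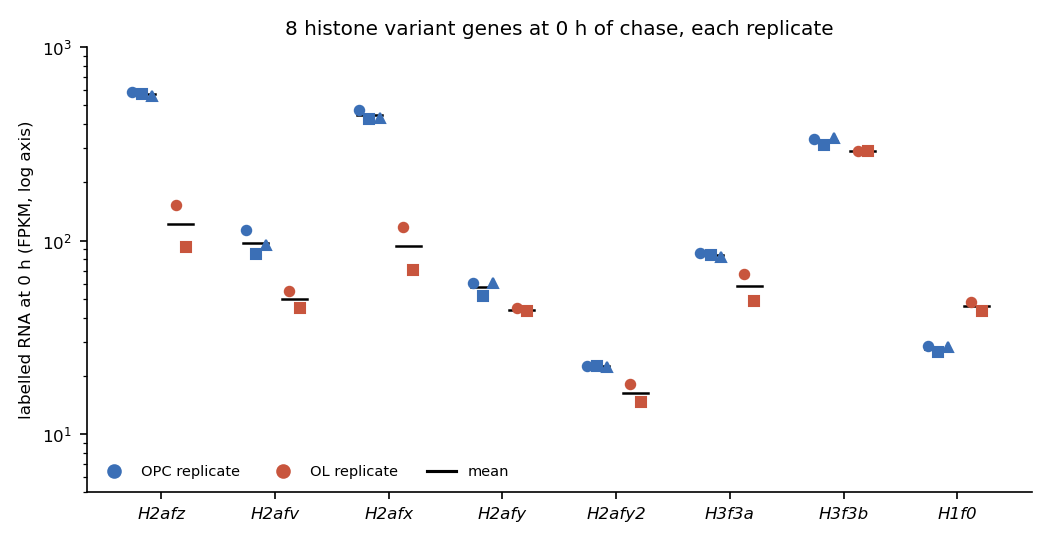
Labelled RNA at 0 h of chase in FPKM on a log axis, for the 8 histone variant genes (horizontal axis). Each point is 1 replicate (3 OPC in blue, 2 OL in red) and each bar is the mean of its group. H2afz and H2afx fall to 21.4% and 21.3% of their OPC mean in OLs, H3f3b stands at 88.3%, and H1f0 alone is higher in OLs.

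Summed over the 8 genes, labelled variant mRNA was 1704, 1578 and 1619 FPKM in OPCs and 793 and 648 FPKM in OLs. H2afz took 34.5%, 36.0% and 34.7% of this sum in OPCs but 19.2% and 14.3% in OLs. The order of mean levels in OPCs was H2afz, H2afx, H3f3b, H2afv, H3f3a, H2afy, H1f0 and H2afy2, and the replicate ranges of H2afv (84.9 to 113 FPKM) and H3f3a (82.6 to 86.2 FPKM) overlapped. In OLs the order was H3f3b, H2afz, H2afx, H3f3a, H2afv, H1f0, H2afy and H2afy2, with overlapping ranges for H2afz and H2afx, for H3f3a and H2afv, for H2afv and H1f0, and for H1f0 and H2afy.

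During the chase the 8 genes separated, on the spike-in scale, into mRNAs that kept their labelled level and mRNAs that lost it. The slope of log2(FPKM + 1) per h of chase, fitted within replicates by limma, passed the threshold in 5 genes in OPCs (1 rising and 4 falling) and in 6 genes in OLs (1 rising and 5 falling). Over all transcripts, 5.06% rose and 81.9% fell in OPCs, and 1.98% rose and 68.9% fell in OLs. The median slope of the 8 genes was -0.10 in OPCs and -0.14 in OLs, against medians of -0.38 and -0.20 over all transcripts. These slopes rest on the spike-in scale. Setting each library to its replicate's 0 h median moved the median slope of all transcripts to -0.02 in OPCs and 0.01 in OLs. On that scale 5 of the 8 genes rose and none fell in OPCs, and 5 rose and 2 fell in OLs, the 5 being H2afz, H2afv, H2afy, H3f3a and H3f3b in both. Slopes on that scale are given beside each gene.

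H3f3a was the 1 gene whose rise on the spike-in scale passed the threshold in both cell types. At 6 h it stood at 123%, 194% and 129% of its own 0 h level in OPC replicates 1, 2 and 3 and at 139% and 151% in OL replicates 1 and 2. All 5 values were above 100%, at the 94.2nd to 98.4th percentile of their library, and 5.78% to 11% of all transcripts were above 100% at 6 h. The slope was 0.12 ± 0.03 per h in OPCs (limma adjusted p = 0.00167) and 0.11 ± 0.04 in OLs (adjusted p = 0.0254). With only OL replicate 2 or only OL replicate 1 the OL slope was 0.08 or 0.13, with adjusted p of 0.115 and 0.146, and without the 6 h libraries it was 0.14 (adjusted p = 0.0975). Fitted without a term for the replicate, the OL slope was 0.11 with an adjusted p of 0.0532. On the replicate-median scale the slope was 0.63 in OPCs (adjusted p = 5.56e-09) and 0.37 in OLs (adjusted p = 6.07e-07).

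H3f3b, which encodes the same protein, fell over the chase, and the change lay between 4 h and 6 h. At 4 h it stood at 72.6%, 99.4% and 91.2% of 0 h in OPCs and at 87.8% and 88.9% in OLs. At 6 h it stood at 23.0%, 51.2% and 55.4% in OPCs and at 36.6% and 55.0% in OLs. The 6 h value was below the 4 h value in each of the 5 replicates, at 31.7% to 61.9% of it, and the median over all transcripts also went to 44.99% to 69.8% of its 4 h level. The slope was -0.19 ± 0.04 per h in OPCs (limma adjusted p = 0.000141) and -0.17 ± 0.05 in OLs (adjusted p = 0.00419). Without the 6 h libraries both slopes were -0.04, with adjusted p of 0.442 and 0.666, and on the replicate-median scale they were 0.32 and 0.09, with adjusted p of 3.57e-05 and 0.0326, so the direction of H3f3b relative to other transcripts was the reverse. Without OL replicate 2 the OL slope was -0.19 with an adjusted p of 0.0585.

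The ratio of these sister genes within a library does not depend on the spike-in scale, which is the same for both. H3f3b over H3f3a went from 3.88, 3.71 and 4.08 at 0 h to 0.727, 0.976 and 1.75 at 6 h in OPCs. In OLs it went from 4.32 and 5.91 to 1.14 and 2.15. It was lower at 6 h than at 0 h in 5 of 5 replicates, and the sum of both mRNAs in these libraries went from 398 to 421 FPKM to 183 to 325 FPKM in OPCs and from 358 and 339 FPKM to 200 and 234 FPKM in OLs.

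**Figure D2:**
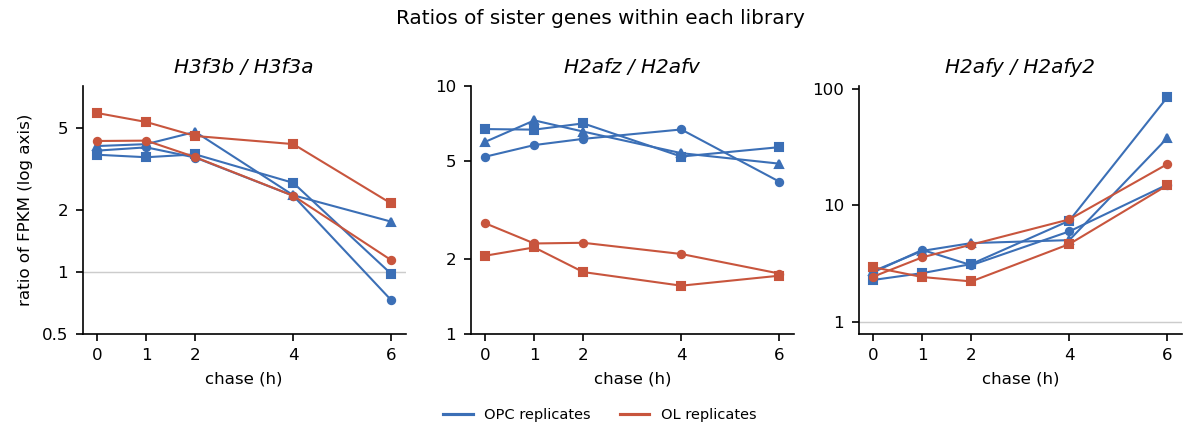
Ratio of FPKM of sister genes within each library (log axes that differ between panels) against hours of chase, 1 line per replicate, OPC in blue and OL in red. H3f3b over H3f3a ends between 0.727 and 2.15 at 6 h from 3.71 to 5.91 at 0 h, H2afy over H2afy2 ends between 14.9 and 84.2, and H2afz over H2afv stays higher in OPCs than in OLs at every time.

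The 2 macroH2A genes parted still further. H2afy stood at 77.7%, 186% and 144% of 0 h at 6 h in OPCs and at 111% and 107% in OLs, and its slope was 0.07 ± 0.04 in OPCs (limma adjusted p = 0.0582) and 0.05 ± 0.04 in OLs (adjusted p = 0.335). OPC replicate 1 was the low one, and without it the OPC slope was 0.13 with an adjusted p of 0.00481. The slope of H2afy on the replicate-median scale was 0.59 in OPCs (adjusted p = 6.38e-09) and 0.30 in OLs (adjusted p = 1.76e-06). H2afy2 stood at 13.8%, 5.10% and 10.4% of 0 h at 6 h in OPCs and at 12.1% and 21.3% in OLs, where the medians of all transcripts were 10.98% to 17.7% and 31.5% and 36.6%. Its 6 h level was 27.7%, 12.8% and 12.3% of its 4 h level in OPCs and 25.4% and 37.5% in OLs, below the median of all transcripts in each replicate. Its slope, which leans on the 6 h libraries, was -0.43 ± 0.07 in OPCs (adjusted p = 5.39e-06) and -0.35 ± 0.05 in OLs (adjusted p = 2.99e-05). On the replicate-median scale it was 0.0016 in OPCs (adjusted p = 0.986) and -0.14 in OLs (adjusted p = 0.0468). H2afy over H2afy2 was 2.31 to 2.74 at 0 h and 15.1 to 84.2 at 6 h in OPCs, and 2.46 and 2.96 at 0 h and 22.6 and 14.9 at 6 h in OLs. H2afy2 was then at 1.14 to 3.12 FPKM, so the 6 h ratios rest on low values.

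The H2A.Z mRNAs stood above most transcripts of their libraries at 6 h in OPCs (percentiles 85.1 to 95.01). H2afz stood at 59.9%, 128% and 81.6% of 0 h at 6 h in OPCs and at 52.9% and 61.9% in OLs, and H2afv at 75.5%, 151% and 100.0% in OPCs and at 84.4% and 74.5% in OLs. OPC replicate 2 was the highest for both genes. The slope of H2afz was -0.01 ± 0.03 in OPCs (limma adjusted p = 0.833) and -0.11 ± 0.04 in OLs (adjusted p = 0.0199). The OL call for H2afz was lost without OL replicate 2 (slope -0.10, adjusted p = 0.316), without the 6 h libraries (-0.05, adjusted p = 0.583) and without a term for the replicate (-0.11, adjusted p = 0.0720). H2afz had replicate-median slopes of 0.51 in OPCs (adjusted p = 8.28e-08) and 0.14 in OLs (adjusted p = 0.000704). The slope of H2afv was 0.05 ± 0.04 in OPCs (adjusted p = 0.174) and -0.03 ± 0.04 in OLs (adjusted p = 0.463), and 0.56 and 0.22 on the replicate-median scale (adjusted p = 8.05e-08 and 6.40e-05). Without OPC replicate 1 the slope of H2afv in OPCs was 0.09 (adjusted p = 0.0395).

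H2afx and H1f0 fell in both cell types on the spike-in scale. H2afx stood at 29.8%, 43.5% and 35.2% of 0 h at 4 h and at 11.6%, 10.4% and 15.7% at 6 h in OPCs, and at 37.6% and 28.1% at 6 h in OLs. Its slope was -0.46 ± 0.04 in OPCs (limma adjusted p = 2.38e-09) and -0.23 ± 0.04 in OLs (adjusted p = 0.000166), against medians of -0.52 and -0.30 over the Hist-cluster genes. On the replicate-median scale it was 0.05 and 0.03, with adjusted p of 0.411 and 0.577.

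H1f0 was at 19.3%, 13.8% and 18.1% of 0 h by 4 h in OPCs and at 16.1%, 18.6% and 15.3% at 6 h. The 6 h level was thus 83.4%, 135% and 84.5% of the 4 h level, where the median over all transcripts was 44.99%, 66.4% and 58.6%. In OLs it was still at 44.1% and 50.8% at 4 h and at 17.5% and 25.02% at 6 h. The medians over all transcripts at 4 h also lay apart, at 39.0%, 20.4% and 37.0% in OPCs and 55.4% and 55.0% in OLs, and H1f0 was below the median in each replicate. Its slope was -0.45 ± 0.06 in OPCs (limma adjusted p = 2.45e-07) and -0.34 ± 0.04 in OLs (adjusted p = 4.33e-06). On the replicate-median scale it was 0.02 in OPCs (adjusted p = 0.801) and -0.09 in OLs (adjusted p = 0.0328).

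**Figure D3:**
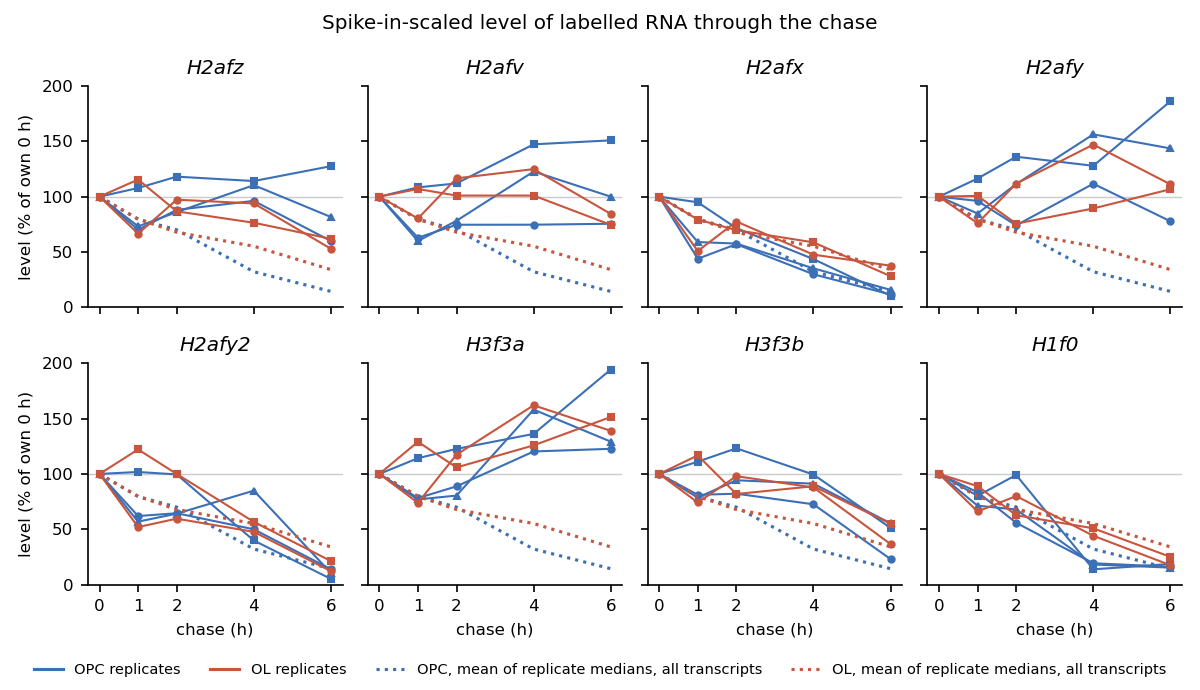
Spike-in-scaled level of labelled RNA as a percent of the same replicate's 0 h level (vertical axis, 0 to 200%) against hours of chase, 1 line per replicate, OPC in blue and OL in red. Dotted lines are the mean over replicates of the median of all transcripts, and the grey line marks 100%. H3f3a ends above 100% in all 5 replicates on this scale, H3f3b drops after 4 h, and H2afx, H2afy2 and H1f0 run near or below the dotted lines at 6 h.

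The deposited half-lives, fitted by the authors to each replicate as a single exponential decay and capped by them at about 6 h, separated 5 of the genes from 3. H2afz, H2afv, H2afy, H3f3a and H3f3b were at the 6 h ceiling in all 5 replicates, as were 16.1% of all transcripts, and H2afx, H2afy2 and H1f0 were below it in each. For H3f3b a half-life of 6 h would leave 50% at 6 h, and 2 of its 5 measured values, 23.0% in OPC replicate 1 and 36.6% in OL replicate 1, lay well below that. The ceiling gives H3f3b and H3f3a the same half-life although their levels at 6 h lay apart.

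H2afx had half-lives of 2.29, 3.33 and 2.51 h in OPCs and 4.25 and 3.84 h in OLs, and the OL values were both above the OPC values. The median over all transcripts was 2.33, 2.05 and 2.79 h in OPCs and 4.15 and 4.05 h in OLs, so H2afx was above the median in OPC replicate 2 and OL replicate 1 and below it in the others. The median of the Hist-cluster genes was 1.63, 1.94 and 1.72 h in OPCs and 3.44 and 1.60 h in OLs. H2afx outlasted 62, 64 and 62 of these 65 genes in the OPC replicates and 51 and 63 of them in the OL replicates. This is a description of where H2afx lies among genes that were picked by name after their values had been seen.

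H1f0 had half-lives of 2.28, 2.48 and 2.22 h in OPCs and 3.39 and 3.00 h in OLs. H2afy2 had 3.16, 3.01 and 3.12 h in OPCs and 2.68 and 4.88 h in OLs, where the OL replicates lay on either side of the OPC values. The half-lives of 2 of the 8 genes, H2afx and H1f0, were higher in every OL than in every OPC replicate, as were those of 35.9% of all transcripts. The 5 genes at the ceiling could not differ, and of the other 3 none passed the threshold (limma on log2 half-life, where 3.54% of 8112 transcripts were called, those at the ceiling included). That share is unsteady, since the 287 transcripts called became 0 with the replicate block, 1 after centring on replicate medians and 23 after a refit without 6 h. H1f0 alone of the 3 had an unadjusted p under 0.05. The log2 difference was 0.59 ± 0.20 for H2afx (adjusted p = 0.219), 0.46 ± 0.08 for H1f0 (adjusted p = 0.0920) and 0.22 ± 0.30 for H2afy2 (adjusted p = 0.753), where the median over all transcripts was 0.37. Centring on each replicate's median takes the same amount from every gene, which moved the median over all transcripts to -0.53 and the values for H2afx, H1f0 and H2afy2 to -0.31, -0.44 and -0.68, so these signs depend on the scale. On either scale H2afx lay above 61.3% of all transcripts, H1f0 above 54.3% and H2afy2 above 42.1%.

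**Figure D4:**
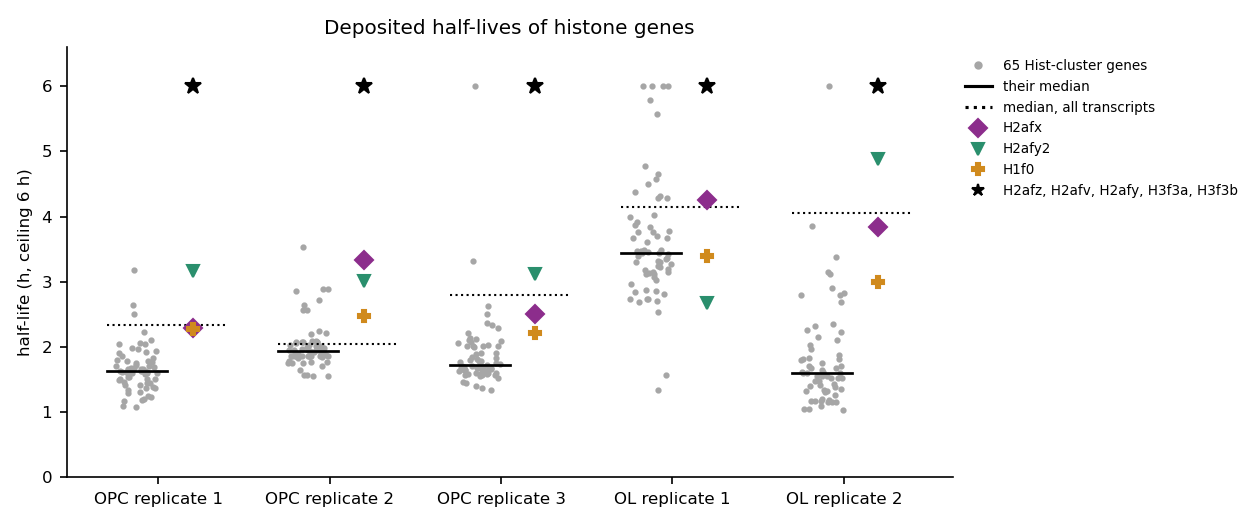
Deposited half-lives in h (vertical axis, ceiling at 6 h) in each replicate (horizontal axis). Grey points are the 65 Hist-cluster genes with their median as a solid bar, the dotted bar is the median of all transcripts, and coloured symbols are the variant genes. H2afx lies above most Hist-cluster genes in each replicate, and the 5 genes drawn as a star are at the ceiling in all 5.

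The chase slopes of OLs and OPCs were compared directly, with 1 slope per replicate. None of the 8 genes passed the threshold in limma, where 23.8% of all transcripts did, and 1 (H2afx) had an unadjusted p under 0.05. That share is unsteady, since the 1944 transcripts called became 88 without OL replicate 1, 0 without OL replicate 2, 569 with a pseudocount of 0.1 and 131 on the replicate-median scale. H2afx came closest, with slopes of -0.46, -0.53 and -0.41 per h in OPCs and -0.19 and -0.27 in OLs, a difference of 0.23 ± 0.08 (adjusted p = 0.0502). When transcripts under a mean of 5 FPKM at 0 h were left out, the same difference had an adjusted p of 0.0496, and on the replicate-median scale it was -0.03 (adjusted p = 0.801).

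H1f0 differed by 0.11 ± 0.08 (limma adjusted p = 0.295), and H2afx and H1f0 had both OL slopes above all OPC slopes, as did 50.9% of all transcripts. H2afz was the 1 gene of the 8 with both OL slopes (-0.10 and -0.13) below all OPC slopes (-0.071, 0.049 and 0.0023), a pattern found in 3.27% of all transcripts, and its difference was -0.11 ± 0.08 (adjusted p = 0.328). The remaining differences lay between -0.09 and 0.08. The median over the 8 genes was 0.0050, against 0.14 over all transcripts.

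**Figure D5:**
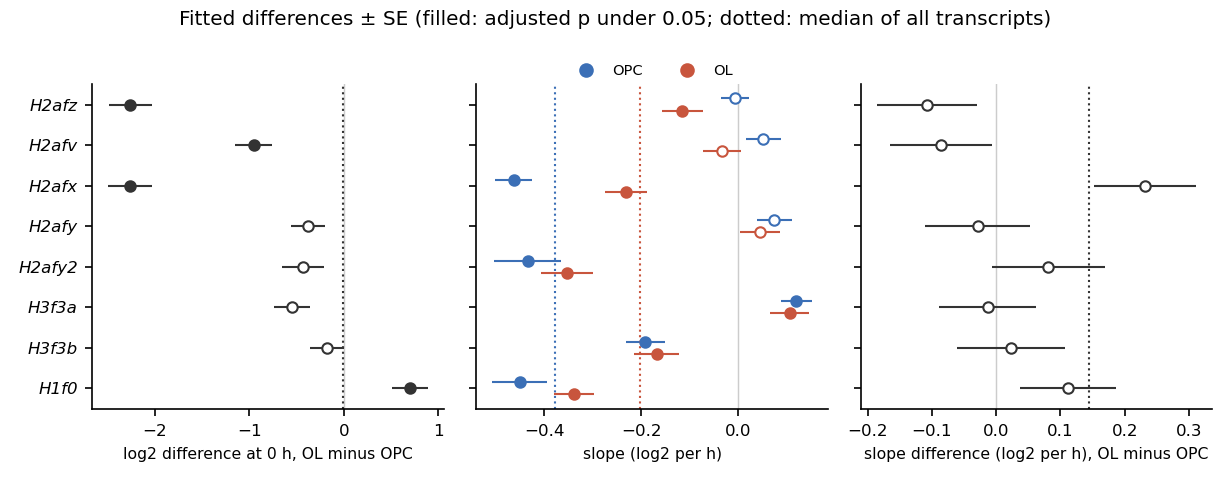
Fitted values with their standard errors for the 8 genes (vertical axis): log2 difference at 0 h of OL minus OPC (left), slope per h of chase in OPC (blue) and OL (red) on the spike-in scale (middle), and the difference of slopes (right). Filled points have an adjusted p under 0.05, and dotted lines are the medians of all transcripts, -0.01 at 0 h, -0.38 and -0.20 for the slopes and 0.14 for their difference.

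The factors that handle these variants were counted from lists of known members. H3.3 is handled by the products of Hira, Ubn1, Ubn2, Cabin1, Daxx, Atrx, Asf1a and Asf1b, and 6 of these 8 genes were tested at 0 h. None passed the threshold in limma in either direction, none had an unadjusted p under 0.05, and the median log2 difference was 0.16. Daxx was listed in OLs only and Asf1b in OPCs only. Of 10 tested genes for H2A.Z exchange, 4 were lower and none higher, where 17.5% of all transcripts were lower and 14.1% higher. The median was -0.59, and the 4 were Ruvbl2 (-1.27), Yeats4 (-1.16) and Actl6a (-0.95), all subunits of the complexes that insert H2A.Z, and Anp32e (-0.83), which removes it.

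Of 9 tested general histone chaperones 6 were lower and none higher, against the same 17.5% and 14.1%, and the median was -0.82. The largest differences were those of Rbbp7 (-1.34), Ipo4 (-1.15), Nasp (-1.09) and Ssrp1 (-0.88). Of 8 tested genes of histone 3′ end formation 1 was lower, Slbp (-0.85), whose product binds the stem-loop, and 1 was higher, Cstf2 (0.77), a cleavage factor, with a median of 0.14. Of 9 tested genes of H2A.X signalling 1 was lower, Mdc1 (-1.72), which binds phosphorylated H2A.X, and the median was -0.15. A list of 16 other histone genes had 15 lower and none higher (median -1.76), led by Cenpa (-3.29), Hist1h2bk (-2.69), Hist1h2ac (-2.42) and Hist2h3c2 (-2.24). The median over all transcripts was -0.01.

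Over the 25 libraries, each taken relative to its own median, the transcript most like each variant gene was found by Pearson's correlation of log2(FPKM + 1) among 8169 transcripts. These values share the libraries and the chase, and they are given as a description. H2afz was most like Tubb5 (r = 0.991), H2afv like Prkaca (0.990), H2afy like Itgb1 (0.986) and H3f3a like Tpt1 (0.991). H2afx was most like a canonical histone gene, Hist2h2bb (r = 0.985). Reads shared with canonical histone genes could add to that likeness, which was not tested. H3f3b was most like Ewsr1 (0.949), H1f0 like Borcs5 (0.901) and H2afy2 like Prmt7 (0.854). Among the 8 genes H3f3a and H2afy were the most alike pair (0.980), and H1f0 was inversely related to each of the others (-0.59 to -0.39).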

How the data were processed

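Reads were aligned to GRCm38 with HISAT2 2.1.0 and quantified with StringTie 1.3.5, per the submitters' processing notes. The deposited FPKM values were made by the authors for the canonical transcript of each gene. Time points were scaled to spike-in reads, and transcripts under 1 FPKM at 0 h, or at 0 at 1 h and 2 h, were dropped by the authors, so a gene not listed in a cell type may have failed either filter. The deposited half-lives, in h, were fitted by the authors by least absolute deviations. Estimates over 6 h were replaced by the authors with 1 value per replicate just above 6 h, which was set to 6 h here. Refitted half-lives differed from the deposited ones by under 0.01 h in 98.5% to 99.9% of transcripts. Replicates shared no more than 0.00242% of their values, so each was counted separately.

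Tests used limma 3.58.1 in R 4.3.3 with Benjamini-Hochberg adjustment over all transcripts, two-sided, at a threshold of 0.05: log2(FPKM + 1) at 0 h, log2 half-life (8112 transcripts with a value in all 5 replicates), slopes with replicate as a term, and 1 slope per replicate for the difference. A fold change on the log2(FPKM + 1) scale understates the change of low genes. The fits of group differences and of slopes within replicates were run on simulated data with independent noise in each library. Those data hold no shifts shared by a library and no 6 h ceiling, and the outcome is not given here. All 10104 listed transcripts matched GENCODE M21, and 10089 had a usable coding sequence. The 8 genes and the gene lists were chosen with earlier results of these data known. All 8 genes are named, as are the 4 progenitor markers and the 8 genes that handle H3.3, past the threshold or not. From each other list that was tested, at most the 4 past the threshold with the largest difference at 0 h are named. Alternatives left out each replicate, changed the pseudocount to 0.1, required a mean of 5 FPKM at 0 h, changed the scale, left out 6 h, refitted half-lives, or changed the replicate term.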

Additional observations from a re-analysis of the deposited data

How the results depend on the processing

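Over all alternatives, 288 of 344 values for single genes kept their direction, or stayed at 0, and kept their side of the threshold, and 6 half-life differences of 0 became negative. The 288 include half-life differences of the 5 genes at the ceiling, which stayed at 0 because of it and are no evidence of steadiness. At 0 h all directions were kept. With the replicate block, 3 genes passed at 0 h and H1f0 did not (0.71, adjusted p = 0.0770), none of the 3 genes below the ceiling passed for half-life and 0 of 8 for the slope difference, and the 0 h, half-life and slope-difference counts over all transcripts were 2253, 0 and 2286. Equal replicate numbers deviated together weakly at 0 h (r = 0.06 for number 1 and 0.01 for number 2). They deviated oppositely for half-life (-0.0016 and -0.105) and for chase slope (-0.026 and -0.101). Against a given OPC replicate, the 2 OL replicates give the same r with opposite signs, so these values are not separate evidence. The study matches OLs to OPC replicates without giving the numbers. The comparisons were left unpaired, and a pairing cannot be told from these values. Without the replicate term in the slope fits, 5 genes passed in OPCs and 4 in OLs, where H2afz and H3f3a were lost.

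Leaving out 1 replicate gave 2 to 4 genes at 0 h and 1183 to 2912 transcripts (4 and 2586 in the full fit), 167 to 236 transcripts for half-life (287), 3 to 5 genes for the OL slope (6), and 0 to 2209 transcripts for the slope difference (1944), the 0 being without OL replicate 2. It turned the direction of the OPC slope of H2afz (from -0.035 to 0.026 over the replicates left out), of the half-life difference of H2afy2 (-0.21 to 0.66), and of the slope differences of H3f3b (-0.035 to 0.066), H2afy (-0.080 to 0.0032) and H3f3a (-0.041 to 0.014). None of these values was past the threshold. The slope difference of H3f3b was -0.00086 without OL replicate 2.

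For half-life, 1 transcript passed after centring on replicate medians and 23 after a refit without 6 h. After a refit to a shared mean decay curve H2afy2 and H1f0 turned to -0.66 and -0.30, H2afz went from 0 to -0.16, and the share of called transcripts that were higher was 31.6% (95.8% as deposited, 47.8% without 6 h). For the slope difference, 569 transcripts passed with a pseudocount of 0.1, 131 on the replicate-median scale, 1240 without 6 h, and 1 of the 8 genes passed with the 5 FPKM minimum. On the replicate-median scale the share of called slopes that were positive was 57.4% in OPCs and 61.6% in OLs (5.82% and 2.79% on the spike-in scale), and the slope differences of H2afx, H2afy2, H3f3b and H1f0 turned to -0.032, -0.15, -0.24 and -0.12. The OPC slopes of H2afz (0.51), H2afx (0.048), H2afy2 (0.0016), H3f3b (0.32) and H1f0 (0.017) and the OL slopes of H2afz (0.14), H2afv (0.22), H2afx (0.026) and H3f3b (0.093) turned on that scale. Half-life differences of H2afx, H2afy2 and H1f0 turned to -0.31, -0.68 and -0.44 after centring, and those of the 5 genes at the ceiling went from 0 to -0.90, which is the difference in replicate medians and carries no information on them. Without the 6 h libraries 3 genes passed in OLs, the OPC slope of H2afz was 0.047, the OL slope of H2afv was 0.055, and the slope differences of H2afy2, H3f3a and H3f3b were -0.030, 0.0077 and -0.0035. The cause was not tested. Depth is unknown from FPKM, and H2afy2, at 1.14 FPKM at its lowest, is the member most limited by it.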

Other observations

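H2afx was set beside the Hist-cluster genes by where their annotated transcripts end, a grouping chosen after the data were seen. Of the 65 genes, 20 had a transcript that ended within 100 bases of the stem-loop, 20 had one that ran over 100 bases past it, as H2afx does, 10 had annotated sequence after the stop codon but no stem-loop found in it, and 15 had no such sequence to search. In OPC replicates 1, 2 and 3 the median half-life was 1.65, 1.93 and 1.81 h for the first set, 1.502, 1.87 and 1.65 h for the second, 1.84, 2.06 and 2.02 h for the third and 1.61, 1.99 and 1.77 h for the genes that could not be searched. In OL replicates 1 and 2 the medians in the same order were 3.26 and 1.53 h, 3.66 and 1.64 h, 3.399 and 1.74 h, and 3.48 and 1.61 h. The OL replicates differed from each other more than the sets did within a replicate. H2afx had 4.25 and 3.84 h in the same replicates.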
